A study of Mus musculus with 36 samples.

Results

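What thapsigargin adds to wild-type cells that already receive BtdCPU was read from 6 of the 36 RNA-seq libraries in the series: 3 libraries of wild-type mouse embryonic fibroblasts (MEFs) given BtdCPU together with thapsigargin, set against 3 libraries of wild-type MEFs given BtdCPU alone. The libraries were chosen by the genotype and treatment in their labels, so both groups share genotype and BtdCPU and differ in thapsigargin. MEFs are fibroblasts grown from mouse embryos, and in the whole series wild-type and Perk-null MEFs each received DMSO (the solvent), thapsigargin, BtdCPU, halofuginone, BtdCPU with thapsigargin, or halofuginone with thapsigargin, in 3 libraries per group. Doses, treatment times, batches and the origin of each line (clones or pools) are missing from the labels, which also do not say that replicates came from separate cultures, so p-values measure only the spread between these libraries.

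The endoplasmic reticulum (ER) folds secreted and membrane proteins and stores calcium. Thapsigargin blocks SERCA, the pump that fills this store, and so causes ER stress, which is sensed by IRE1 (it splices Xbp1 mRNA into the template of a transcription factor and cleaves some other mRNAs), by ATF6 (a membrane-bound transcription factor released by cleavage) and by PERK. PERK phosphorylates eIF2 alpha and so turns on the integrated stress response (ISR): general translation falls while the factor ATF4 is made. BtdCPU starts the ISR by another route, through the eIF2 alpha kinase HRI (encoded by Eif2ak1), so the comparison asks what ER stress changes in cells whose ISR is already on.

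The 6 libraries held 32454257 to 37016160 estimated counts each, within the range of all 36 (32454257 to 37178107), and 13251 to 14499 genes with at least 10 counts. Eif2ak3, the gene of PERK, averaged 20.2 ± 5.96 CPM (counts scaled to a common library size; SD, n = 3) in wild-type cells with BtdCPU and 8.64 ± 0.563 CPM in Perk-null cells with BtdCPU, and 74.0 ± 1.19 against 20.8 ± 2.93 CPM with thapsigargin added, so the knockout libraries were lower but not at 0. The labels do not name the deleted exons, so these counts check the genotype only in part. Among the BtdCPU libraries, replicate 2 stood apart: its level of many ISR genes was the lowest of the 3, and mRNAs encoded by mitochondrial DNA made up 3.72% of its counts, against 1.81% and 1.79% in replicates 1 and 3. Results that rest on this library are given with and without it. Fibroblast markers were abundant in every library (10 of 10 in the file, summed level 20630 to 23250 CPM with BtdCPU and 9515 to 11370 CPM with BtdCPU and thapsigargin, a sum that includes the collagens Col1a1, Col1a2 and Col6a1 described below), while lists for other cell types were far lower. The 6 epithelial markers summed to 0.213 to 0.595 CPM with BtdCPU, where Krt18 was at 0, and to 1.61 to 3.69 CPM in the combination, with none at 0. The 5 muscle markers summed to 1.08 to 3.90 and 0.812 to 1.85 CPM, with Myod1 and Myog at 0 in both groups and Des and Tnnt3 at 0 with BtdCPU only. The 5 neuronal markers summed to 47.3 to 69.0 and 117 to 175 CPM, with Rbfox3 and Snap25 at 0 in both groups and Elavl3 with BtdCPU only. The part of these markers in the results was not tested.

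Thapsigargin changed a large share of the transcriptome. Of 16065 genes tested with edgeR's quasi-likelihood test, 6489 (40.4%) passed a Benjamini-Hochberg adjusted p of 0.05, of which 3356 (20.9% of all tested) were higher and 3133 (19.5%) were lower with thapsigargin. Rises were the larger changes: 1443 genes rose and 603 fell by more than 2-fold, and 472 rose and 30 fell by more than 8-fold. The CPM ranges of the 2 groups did not overlap for 7114 genes (44.3%). The median log2 fold change over all tested genes was 0.03. With libraries scaled by their totals in place of TMM this median moved up by 0.11 and 65.4% of the calls, in place of 51.7%, were higher, so shifts of about that size have no firm sign. Because so many genes were called, each gene list below is read against these shares.

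The ER stress program rose on top of BtdCPU. Over 6 lists of ER genes (sensors, folding, degradation, translocation, glycosylation and ER-Golgi traffic; 97 genes tested), 66 were called higher and 6 lower, with a median log2 fold change of 0.60, and without BtdCPU replicate 2 the count was 66 higher and 5 lower. The ISR program, already raised by BtdCPU, had a smaller median change: 0.18 over 5 lists of ISR genes (54 tested). Of these genes 17 were called higher and 4 lower, where the shares over all genes tested were 20.9% and 19.5%. Without BtdCPU replicate 2 the ISR count dropped to 7 higher and 7 lower, with a median of 0.087, so this count rests in large part on that library. A fit of only the groups compared called 9 of 53 higher and 2 lower. With libraries scaled by their totals, 6 of 9 ISR factors, 7 of 12 tRNA synthetases and 5 of 11 effectors were called higher and none lower. That scaling called 5 of 13 amino acid synthesis genes and 3 of 9 transporters higher, with 1 lower in each list. Over all 16065 genes it called 4264 higher, in place of 3356.

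**Figure D1:**
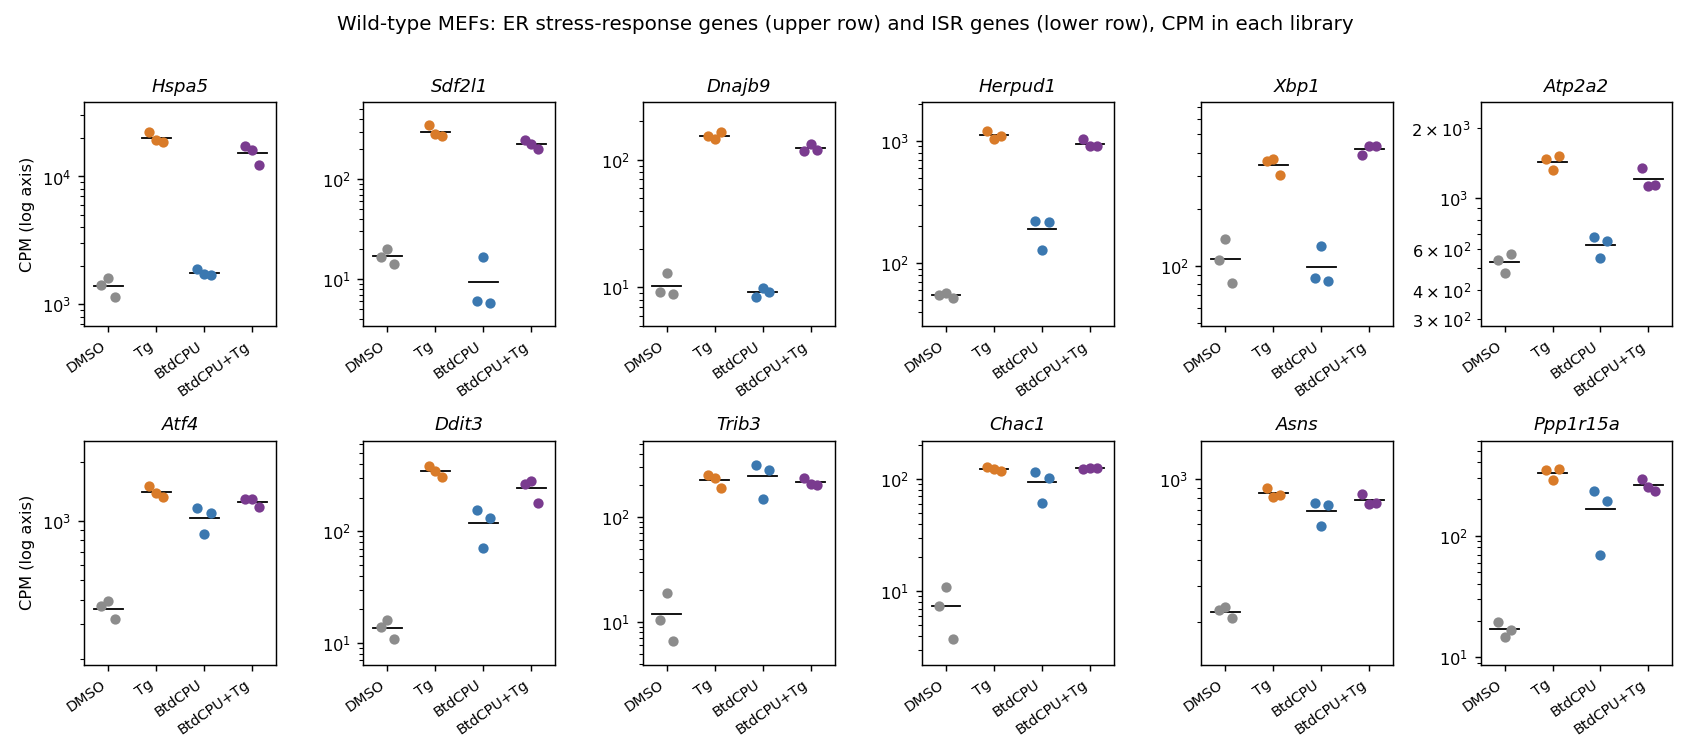
CPM (log axis) of 6 ER stress genes (upper row) and 6 ISR genes (lower row) in each wild-type library with DMSO, thapsigargin (Tg), BtdCPU, or BtdCPU with thapsigargin; points are libraries and bars are means of 3. The ER genes Hspa5, Sdf2l1, Dnajb9 and Xbp1 step up with thapsigargin whether or not BtdCPU is present, while Atf4, Trib3, Chac1 and Asns are already high with BtdCPU alone.

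Among the sensors, Xbp1, the mRNA that IRE1 splices, was measured at 86.2, 127 and 83.2 CPM with BtdCPU and at 389, 435 and 432 CPM after thapsigargin was added. The groups were far apart, and Xbp1 rose by 2.08 on the log2 scale (SE 0.146, edgeR adjusted p = 1.76e-12). Eif2ak3 itself stood at 16.4, 27.1 and 17.2 CPM against 74.9, 72.7 and 74.4 CPM, a log2 fold change of 1.87 (SE 0.183, edgeR adjusted p = 1.49e-09), again without overlap. Creb3l2, a membrane-bound factor of the ATF6 type, rose by 1.20, Creb3 by 0.73 and Atf6 by 0.68 (0.40 without BtdCPU replicate 2). The 3 members called lower were Mbtps1 (-0.67) and Mbtps2 (-0.42), the proteases that release ATF6, and Atf6b (-0.28, a call lost without BtdCPU replicate 2, edgeR adjusted p = 0.123). Ern1, the gene of IRE1, was at 30.4, 16.9 and 38.2 CPM against 37.0, 26.2 and 39.9 CPM, and these overlapping values did not pass the test (log2 fold change 0.27, edgeR adjusted p = 0.285; 0.54, adjusted p = 0.0398, without BtdCPU replicate 3; 0.30, adjusted p = 0.0476, with a replicate block). Eif2ak1, the kinase gene through which BtdCPU acts, was at 41.8, 42.8 and 45.6 CPM against 43.1, 38.1 and 43.7 CPM and was not called either (edgeR adjusted p = 0.639); its locus overlaps Aimp2, whose reads it may share.

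The folding machinery gave the largest list-wide rise: 19 of 22 genes were called higher and 1 lower, with a median log2 fold change of 1.59. Hspa5 encodes BiP, the main ER chaperone, which also holds the sensors inactive. It stood at 1898, 1739 and 1689 CPM with BtdCPU and at 17260, 16190 and 12370 CPM with thapsigargin added, and so rose by 3.10 on the log2 scale (SE 0.152, edgeR adjusted p = 3.25e-16). No library of either group came near the other; the annotation places Rabepk over part of Hspa5, so a share of these counts could be its own. Hsp90b1, the ER member of the HSP90 family, was at 2351, 2448 and 2184 CPM against 8308, 8652 and 6701 CPM (log2 fold change 1.76, SE 0.125, edgeR adjusted p = 1.99e-12). The third thapsigargin library was the lowest of its group for both chaperones, yet remained far above every BtdCPU library.

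Hspa5 and Hsp90b1 are shown with their promoters because both hold the ER stress element, the DNA motif bound by ATF6 together with NF-Y (CCAAT and CCACG separated by 9 bases). The 250 bases before each start site are from RefSeq's annotation of GRCm38.p6, written 5′ to 3′ on the gene's strand, with the conserved letters of the motif in capitals (on either strand). Hspa5 lies at chr2:34771840-34772089 on the plus strand and its element ends 46 bases before the start site, and Hsp90b1 lies at chr10:86705445-86705694 on the minus strand with 2 elements.
Hspa5: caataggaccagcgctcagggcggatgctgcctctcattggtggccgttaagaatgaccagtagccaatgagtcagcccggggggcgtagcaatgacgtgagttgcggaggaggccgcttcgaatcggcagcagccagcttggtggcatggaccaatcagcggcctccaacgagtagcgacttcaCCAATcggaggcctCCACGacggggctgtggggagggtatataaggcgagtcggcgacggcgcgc
Hsp90b1: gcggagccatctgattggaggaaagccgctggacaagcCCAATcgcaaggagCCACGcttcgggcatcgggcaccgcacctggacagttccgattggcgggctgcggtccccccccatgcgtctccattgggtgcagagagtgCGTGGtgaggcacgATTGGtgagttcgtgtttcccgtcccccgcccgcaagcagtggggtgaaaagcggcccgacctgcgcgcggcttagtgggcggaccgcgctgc

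In windows of 300 bases (250 before and 50 after the start site), this element was found in 37 of 27025 genes (0.137%). It was found in 8 of the 19 folding genes with a promoter in the table (42.1%): Calr, Canx, Creld2, Dnajc3, Ero1lb, Hsp90b1, Hspa5 and Pdia6. All 8 were called higher with thapsigargin, from 0.52 for Canx to 3.60 for Creld2 on the log2 scale. Folding genes without a match rose too, among them Sdf2l1 and Dnajb9, so a match in these letters is a description of the window only.

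Sdf2l1, a partner of the ER co-chaperones, showed the largest rise of the list: 6.10, 16.5 and 5.70 CPM against 249, 226 and 201 CPM, a log2 fold change of 4.57 (SE 0.303, edgeR adjusted p = 4.49e-13). Leaving out BtdCPU replicate 2, the high library of its group, raised this to 5.25. Dnajb9, an ERdj co-chaperone and a textbook target of spliced XBP1, was at 8.40, 9.92 and 9.14 CPM against 117, 132 and 119 CPM (log2 fold change 3.74, SE 0.170, edgeR adjusted p = 6.2e-17). Both genes were low in every BtdCPU library and more than 10 times higher in every library with thapsigargin. Creld2, a secreted ER stress protein, went from 42.7, 49.5 and 38.3 CPM to 569, 576 and 437 CPM and rose by 3.60. Ero1lb, an oxidase that feeds disulphide formation, rose by 3.21, Manf, a secreted ER protein, by 2.90, Hyou1, the large ER HSP70, by 2.69 and Dnajc3 by 2.40. The lectin chaperones Calr and Canx rose by 1.54 and 0.52. Disulphide isomerases rose over a wide range, by 1.79 for Pdia4, 1.15 for Pdia6, 0.82 for Pdia3 and 0.40 for P4hb (Pdia3 and Pdia6 overlap other genes in the annotation).

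Ero1l, the other ER oxidase gene and, unlike Ero1lb, also a target of the ISR factor CHOP, was already at 147, 76.0 and 154 CPM with BtdCPU and reached 197, 172 and 160 CPM with thapsigargin. Its rise of 0.49 (edgeR adjusted p = 0.0367) was lost without BtdCPU replicate 2 (0.23, adjusted p = 0.31). Txndc5, at 345, 404 and 412 CPM against 304, 264 and 266 CPM, was the folding gene that fell, by 0.48 on the log2 scale. Ppib (0.14) and Sil1 (0.07) were the 2 folding genes that did not pass the test.

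ER-associated degradation, which pulls misfolded proteins back to the cytosol, rose in 11 of 15 genes and fell in 1, with a median of 0.91. Syvn1, the ubiquitin ligase of this route, rose by 2.58 (31.2, 38.3 and 35.5 CPM against 245, 194 and 191 CPM), though it overlaps Mrpl49. Herpud1, which assembles the ligase complex, was at 221, 128 and 218 CPM against 1039, 900 and 898 CPM and rose by 2.32 (SE 0.159, edgeR adjusted p = 9.41e-13). All 3 thapsigargin libraries were more than 4 times the highest BtdCPU library. Vimp rose by 1.77, Sel1l, the ligase's adaptor, by 1.73, and Ube2g2 by 1.22. Derl3 was also called higher, but from 0.0567 to 0.0659 CPM to 0.299 to 0.550 CPM, a few counts per library, so its fold change carries little weight. Os9, Erlec1 and Ube2j1 did not pass the test.

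Herpud1 is shown because its promoter carries motifs of both programs: the second form of the ER stress element (ATTGG and CCACG separated by 1 base), found in 12 of 27025 genes (0.0444%), and the C/EBP-ATF element of ATF4 and CHOP (TGATGNAA), found in 1219 genes (4.51%). Both strands were searched. The window lies at chr8:94386179-94386428 on the plus strand, and capitals mark the conserved letters of both motifs, which end 41 and 104 bases before the start site.
Herpud1: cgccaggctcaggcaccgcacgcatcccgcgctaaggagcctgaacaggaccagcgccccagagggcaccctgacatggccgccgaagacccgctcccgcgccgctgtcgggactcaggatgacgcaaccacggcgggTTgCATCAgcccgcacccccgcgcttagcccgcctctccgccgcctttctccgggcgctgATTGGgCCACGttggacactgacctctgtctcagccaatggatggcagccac

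Protein entry, sugar transfer and export followed with smaller rises. Of 17 translocation genes 12 were called higher and none lower, with a median of 0.58: the signal peptidase subunit Sec11c rose by 1.35, Spcs3 by 0.96 and Spcs2 by 0.78, and Sec61a1, the channel itself, by 0.68. Of 15 glycosylation genes 9 were called higher and none lower (median 0.36), led by the mannosyltransferase Alg2 (14.5 to 15.8 CPM against 34.3 to 42.6 CPM, log2 fold change 1.40). Gnpnat1 (0.86), Uap1 (0.85), Gfpt1 (0.85) and Pgm3 (0.77), which act in series to make UDP-GlcNAc, were all called higher, though Gnpnat1 was no longer called in 3 of the fits that left out a library (BtdCPU replicate 3, combination replicates 1 and 2; adjusted p from 0.0742 to 0.0975). Of 18 ER-Golgi traffic genes 10 were called higher and 1 lower, with a median of 0.32. The COPII coat gene Sec23b (101, 113 and 101 CPM against 292, 278 and 281 CPM) rose by 1.43, Golgb1 by 1.25, Mcfd2 by 0.99 and Sec24d by 0.89, and the retrieval receptor gene Kdelr1 fell by 0.51. The XBP1 element (TGACGTGG, whose letters on the other strand include the CCACG of the ER stress element) was found in 193 of 27025 genes (0.714%). It was found in 4 of the 15 traffic genes with a promoter (26.7%), Copb1, Kdelr3, Sec23a and Sec24d, all of them called higher. In the other ER lists it was found in Txndc11, called higher, in Txndc5, which fell, and in Ube2j1, which did not pass the test. Here too a match is a description of the window only.

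The ISR factors were high before thapsigargin was added, and 5 of 9 were called higher and none lower when it was (median 0.34; 3 called higher without BtdCPU replicate 2, and 2 and 3 without combination replicates 1 and 3). Atf4 was at 1163, 856 and 1096 CPM with BtdCPU and at 1291, 1293 and 1175 CPM with thapsigargin. The groups did not overlap, but the rise was small: 0.27 on the log2 scale (SE 0.107, edgeR adjusted p = 0.0419), and 0.15 (adjusted p = 0.299) without BtdCPU replicate 2. The call was also lost without any of the 3 combination libraries (adjusted p from 0.0693 to 0.183). For comparison, Atf4 averaged 360 ± 38.7 CPM with DMSO and 1408 ± 87.7 CPM with thapsigargin alone (SD, n = 3 each). BtdCPU alone, at 1038 ± 162 CPM, lay between the latter 2 groups and nearer to thapsigargin.

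Trib3, a pseudokinase raised by ATF4 and CHOP, was at 313, 147 and 277 CPM with BtdCPU and 234, 204 and 203 CPM after thapsigargin was added. The libraries of the combination lay between those of BtdCPU alone (log2 fold change -0.20, edgeR adjusted p = 0.562), and the mean was 12 ± 6.32 CPM with DMSO. Chac1, which degrades glutathione, was at 116, 61.1 and 101 CPM against 122, 125 and 125 CPM (log2 fold change 0.42, edgeR adjusted p = 0.0859), with 7.37 ± 3.55 CPM in DMSO. Asns, asparagine synthetase, was at 757, 588 and 746 CPM against 838, 752 and 759 CPM (0.17, edgeR adjusted p = 0.201), with 224 ± 13.4 CPM in DMSO. None of these 3 passed the test. Without BtdCPU replicate 2 the log2 fold changes of Trib3, Chac1 and Asns were -0.47, 0.19 and 0.06, none of them called. With libraries scaled by their totals, Chac1 (0.54, edgeR adjusted p = 0.0279) and Asns (0.29, adjusted p = 0.0247) passed, and without BtdCPU replicate 1 Chac1 did too (0.61, adjusted p = 0.025).

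Asns and Chac1 are shown because they are textbook ATF4 targets that BtdCPU alone had already raised, and both promoters hold a C/EBP-ATF element (capitals; it ends 15 bases before the start site in Asns and 185 bases before it in Chac1). The windows lie at chr6:7693210-7693459 on the minus strand and chr2:119350992-119351241 on the plus strand of GRCm38.p6.
Asns: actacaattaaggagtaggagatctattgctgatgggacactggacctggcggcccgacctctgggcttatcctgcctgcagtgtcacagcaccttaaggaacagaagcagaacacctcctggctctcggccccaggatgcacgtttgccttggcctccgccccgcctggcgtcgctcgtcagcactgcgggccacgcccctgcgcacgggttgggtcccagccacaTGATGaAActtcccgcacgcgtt
Chac1: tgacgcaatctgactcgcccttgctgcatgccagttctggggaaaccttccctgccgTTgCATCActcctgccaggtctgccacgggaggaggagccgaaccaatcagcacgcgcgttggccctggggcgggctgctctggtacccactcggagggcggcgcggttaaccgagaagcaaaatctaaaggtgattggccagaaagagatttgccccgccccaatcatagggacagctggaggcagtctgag

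In windows of 300 bases the C/EBP-ATF element was found in 3 of 9 ISR factor genes (33.3%; Atf3, Nupr1 and Trib3), in 3 of 11 matched amino acid synthesis genes (27.3%; Asns, Got1 and Pycr1) and in 3 of 9 matched effector genes (33.3%; Chac1, Fgf21 and Vldlr). No gene of these 3 lists held the ER stress element. Some ISR factors did rise further with thapsigargin. Atf3 was at 33.6, 13 and 32.1 CPM against 90.5, 89.0 and 88.3 CPM, a log2 fold change of 1.77 (SE 0.193, edgeR adjusted p = 1.16e-08), which became 1.44 without BtdCPU replicate 2. Ddit3, the gene of the pro-apoptotic factor CHOP, was at 156, 70.9 and 133 CPM against 264, 285 and 180 CPM (1.02, SE 0.204, edgeR adjusted p = 0.00016), and 0.75 without that library. Both calls remained without that library, and the groups did not overlap; Ddit3 shares its locus with Mars and Mbd6. Atf5 rose by 0.37. Ppp1r15a, which encodes the phosphatase subunit GADD34 that reverses eIF2 alpha phosphorylation, was at 231, 69.4 and 194 CPM against 295, 250 and 235 CPM. Its rise of 0.66 (edgeR adjusted p = 0.0126) became 0.29 (adjusted p = 0.0722) without BtdCPU replicate 2 and 0.52 (adjusted p = 0.0809) without combination replicate 1.

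Amino acid synthesis showed no common direction: 2 of 13 genes were called higher (Aldh1l2 by 0.59 and Got1 by 0.40) and 2 lower (Phgdh by -0.40 and Mthfd2 by -0.33), with a median of 0.15. The Got1 call was lost without BtdCPU replicate 2 (0.20, adjusted p = 0.149) or combination replicate 1 (0.29, adjusted p = 0.103), and the Mthfd2 call without BtdCPU replicate 1 (-0.20) or 3 (-0.26). Of 9 transporters 3 were called higher and 1 lower (median 0.07), and 1 higher and 2 lower without BtdCPU replicate 2 (median -0.18), where Slc7a3 (adjusted p = 0.177) and Slc7a11 (adjusted p = 0.0661) lost their calls. Slc3a2, the heavy chain shared by several exchangers, was at 926, 450 and 954 CPM against 1354, 1259 and 1261 CPM and rose by 0.73 (0.46 without BtdCPU replicate 2), whereas its partner Slc7a5 overlapped between groups (873, 505 and 1007 CPM against 900, 743 and 852 CPM). Slc1a5 fell by 0.58. Of 12 tRNA synthetases 4 were called higher and 1 lower (median 0.13), and 1 higher and 2 lower without BtdCPU replicate 2 (median -0.02). Wars, the tryptophanyl-tRNA synthetase, rose most, from 147, 110 and 141 CPM to 307, 244 and 226 CPM (0.97, SE 0.147, edgeR adjusted p = 3.63e-06), and Tars, Lars and Nars by 0.31, 0.28 and 0.27, calls that were all lost without BtdCPU replicate 2. Of 11 effectors 3 were called higher and none lower (median 0.19): the stress hormone Gdf15 by 1.81, from 0.454 to 1.07 CPM to 2.37 to 3.30 CPM, Fgf21 by 1.16 and Vegfa by 0.42, the last 2 also lost without that library.

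The thapsigargin response was then compared directly with that of cells without BtdCPU (thapsigargin against DMSO; 7647 genes called, 47.6%), a contrast that shares no library with it. Called genes overlapped in large part: 2265 of the genes that rose with BtdCPU present also rose without it (67.5% of 3356 and 56.6% of 4000, the latter 24.9% of all tested), 2197 fell in both (70.1% of 3133 and 60.2% of 3647, the latter 22.7% of all tested), and 83 were called in opposite directions. The difference between both responses, tested as an interaction, passed for 1402 genes (8.73%), 567 of them (3.53%) with a more positive response under BtdCPU and 835 (5.2%) with a less positive or more negative response. This count depended on the BtdCPU libraries: it was 818, 2668 and 903 without replicates 1, 2 and 3 in turn. ISR genes were on the latter side: 49 of 54 had a smaller response under BtdCPU, none a larger one, and the median difference was -1.56. The count was 51 of 54 without BtdCPU replicate 2. ER genes differed in 12 of 97, all smaller, with a median difference of -0.22, and without BtdCPU replicate 2 the ER counts were 19 smaller and 4 larger.

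**Figure D2:**
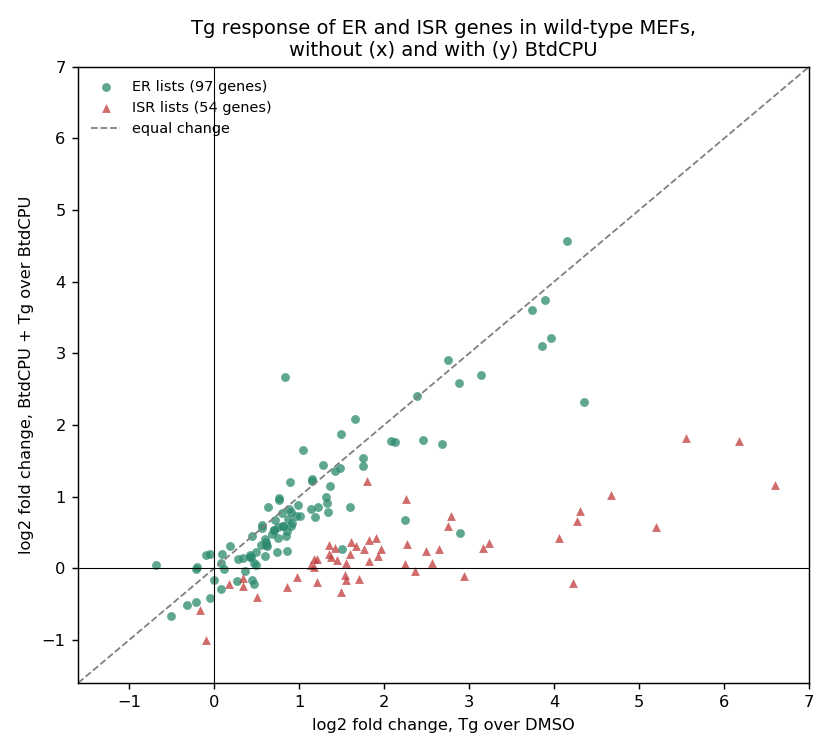
Log2 fold change of thapsigargin over DMSO (x axis) against that of BtdCPU with thapsigargin over BtdCPU (y axis) for 97 ER genes (circles) and 54 ISR genes (triangles) in wild-type MEFs; the dashed line marks equal change. Of the ER genes 73 of 97 lie below the line, most of them close to it, while all 54 ISR genes lie below it and mostly near 0 on the y axis.

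The mean BtdCPU level was above the mean DMSO level in 54 of 54 ISR genes (median log2 ratio 1.46) and in 40 of 97 ER genes (median -0.081). With thapsigargin present, the median log2 ratio of the combination to thapsigargin alone was -0.21 for the ISR genes and -0.24 for the ER genes. Both lists thus ended slightly below their level with thapsigargin alone, while the ISR genes started higher. Among the ISR genes, the difference in response was -5.43 for Fgf21, -4.62 for Adm2, -4.43 for Trib3, -4.40 for Atf3, -3.64 for Ddit3, -3.63 for Chac1, -3.61 for Ppp1r15a and -1.76 for Asns, with edgeR adjusted p from 6.16e-11 (Atf3) to 4.43e-06 (Fgf21). The 12 ER genes with a smaller response included Ero1l (-2.40), Herpud1 (-2.03), Atf6 (-1.57), Ern1 (-1.23), Sel1l (-0.95), Hspa5 (-0.75) and Pdia4 (-0.67). Herpud1 averaged 54.5 ± 2.72 CPM with DMSO, 189 ± 52.6 CPM with BtdCPU, 946 ± 81.0 CPM with the combination and 1111 ± 94.5 CPM with thapsigargin. Hspa5 averaged 1390 ± 232 CPM with DMSO, 1775 ± 109 CPM with BtdCPU, 15270 ± 2572 CPM with the combination and 20050 ± 2032 CPM with thapsigargin. BtdCPU alone was thus well above DMSO for Herpud1 and close to it for Hspa5. Xbp1, Dnajb9, Creld2, Sdf2l1 and Hyou1 did not differ in response by this test (edgeR adjusted p from 0.13 to 0.764), though without BtdCPU replicate 2 the responses of Xbp1 (difference 0.65, adjusted p = 0.0138) and Sdf2l1 (1.10, adjusted p = 0.0168) were larger under BtdCPU.

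Calcium genes moved both ways: 3 of 15 were called higher and 6 lower, with a median of -0.32. Atp2a2, which encodes SERCA2, the pump that thapsigargin blocks, was at 676, 549 and 652 CPM against 1348, 1119 and 1130 CPM and rose by 0.94 (SE 0.0945, edgeR adjusted p = 2.65e-09). Its response was smaller than in cells without BtdCPU (difference -0.49, edgeR adjusted p = 0.0156). Atp2a3, another SERCA gene, rose from 0.231 to 0.396 CPM to 1.56 to 3.39 CPM. Stim2, a sensor of ER calcium, was at 61.9, 48.7 and 70.3 CPM against 22.7, 18.6 and 29.8 CPM and fell by 1.35, and Itpr3, an ER calcium release channel, fell by 0.73. The ER calcium binders Rcn1, Calu and Sdf4 fell by 0.49, 0.32 and 0.32.

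All 6 mRNAs on the list of known IRE1 cleavage substrates fell, with a median of -1.77. Scara3 was at 14.3, 16.8 and 16.5 CPM with BtdCPU and at 1.41, 2.04 and 2.64 CPM with thapsigargin (log2 fold change -2.96, SE 0.231, edgeR adjusted p = 1.3e-11), the largest fall of any gene that met the criteria for naming. Hgsnat, a lysosomal acetyltransferase, was at 96.0, 88.3 and 82.2 CPM against 21.4, 21.8 and 22.5 CPM (-2.02, SE 0.107). Col6a1, a collagen chain, was at 836, 882 and 762 CPM against 222, 249 and 260 CPM (-1.76, SE 0.0939). In each of the 3 genes the groups lay several-fold apart. Spread within either group was small for Hgsnat and Col6a1, while Scara3 ran from 1.41 to 2.64 CPM with thapsigargin. Bloc1s1, the best known substrate, fell by 1.77 (it overlaps Rdh5), Pdgfrb by 0.89 and Pmp22 by 0.47, a call lost without BtdCPU replicate 2 (adjusted p = 0.0766). None of the 6 responses differed from that without BtdCPU by the interaction test (median difference 0.065).

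Matrix genes, a main product of fibroblasts, fell in 17 of 23 and rose in 1, with a median of -0.80. The summed fibroblast markers given above, which include several of these genes, were lower as well, and their part in the result was not tested. Col1a2, a chain of type I collagen, was at 5335, 5777 and 5845 CPM against 2868, 2404 and 2405 CPM and fell by 1.14 (SE 0.117, edgeR adjusted p = 3.5e-09). Col3a1 fell by 1.49, the secreted glycoprotein Thbs1 by 1.35, Sparc by 1.20 and Col4a2 by 1.15 (Col4a1 and Col4a2 overlap). Timp3, an inhibitor of matrix proteases, was at 241, 133 and 273 CPM against 50.2, 48.3 and 62.5 CPM and fell by 2.00. Col5a3 was the exception and rose by 1.19, from 22.9, 16.8 and 11.6 CPM to 45.4, 43.2 and 28.2 CPM. In bulk RNA, fewer cells that make a transcript and less of it per cell cannot be told apart. Other large falls included Oaf (-2.78), the integrin gene Itgb3 (-2.69), Pbxip1 (-2.66), the microfibril gene Mfap2 (-2.53), Angptl2 (-2.49) and Evi2a (-2.48), where Angptl2 and Evi2a overlap Ralgps1 and Nf1.

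**Figure D3:**
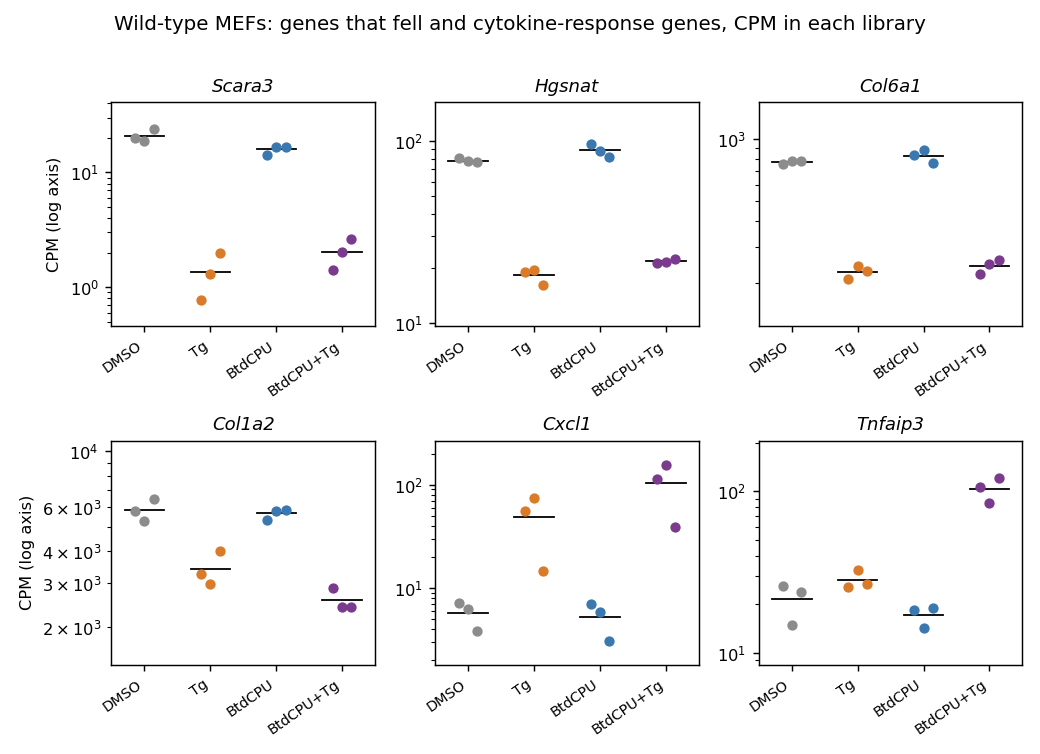
CPM (log axis) of Scara3, Hgsnat, Col6a1, Col1a2, Cxcl1 and Tnfaip3 in each wild-type library with DMSO, thapsigargin (Tg), BtdCPU, or both; points are libraries and bars are means of 3. The first 4 genes are low in every library with thapsigargin, and Tnfaip3 reaches 84.6 to 121 CPM in the combination against 14.3 to 19.0 CPM with BtdCPU alone.

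Cytokine and NF-kB response genes rose: 13 of 17 were called higher and 1 lower, with a median of 1.99. Tnfaip3, which encodes the NF-kB inhibitor A20, was at 18.5, 14.3 and 19.0 CPM with BtdCPU and 106, 84.6 and 121 CPM with thapsigargin (log2 fold change 2.59, SE 0.282, edgeR adjusted p = 1.18e-08). Its response was larger than without BtdCPU, where thapsigargin gave 28.3 ± 3.71 CPM against 21.6 ± 5.84 CPM in DMSO (difference 2.20, edgeR adjusted p = 0.000233). The neutrophil chemokine Cxcl1 was at 6.92, 5.81 and 3.05 CPM against 113, 156 and 39.3 CPM (4.29, SE 0.476), with the third library of the combination well below the other 2 but above all of BtdCPU. Cxcl2 had 0 counts in all 3 BtdCPU libraries and 50, 107 and 4 counts in the combination, at least 16.4-fold higher when 3 counts per library are taken as the floor. Ccl2, a monocyte chemokine, was at 137, 197 and 70.0 CPM against 526, 711 and 369 CPM and rose by 1.99, and this response too was larger than without BtdCPU (difference 1.80, edgeR adjusted p = 0.00599). Ccl20 rose by 3.93, Cxcl10 by 2.99, Lif by 1.55 and Nfkbia by 0.82, and Cxcl12 fell by 1.10. Across the list, 4 of 17 responses were more positive than without BtdCPU and 3 less positive (median difference 0.41). Without BtdCPU replicate 2 the difference was -8.20 for Ccl20 (edgeR adjusted p = 0.000268) and -3.10 for Cxcl10 (edgeR adjusted p = 4.68e-05). Macrophage markers, 5 in the file, summed to 13.4 to 18.6 CPM with BtdCPU and 15.8 to 20.9 CPM in the combination, with Tyrobp at 0 throughout; their part in the cytokine result was not tested.

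Interferon-stimulated genes were called higher in 8 of 18 and lower in none, with a median of 1.10, but with wide spread. Ifit1 was at 10.2, 6.12 and 2.68 CPM against 28.3, 36 and 16 CPM (log2 fold change 2.08, edgeR adjusted p = 0.0098). The call was lost without BtdCPU replicate 3 (1.71, adjusted p = 0.0656) or combination replicate 2 (1.77, adjusted p = 0.054), and without either of these libraries 5 of the 18 genes were called. The third library of each group was the lowest, and the same held for Usp18 (6.95, 6.41 and 0.792 CPM against 18.1, 18.0 and 4.67 CPM), which overlapped and did not pass (adjusted p = 0.106). Irf1 was steadier, at 21.4, 42.2 and 25.5 CPM against 77.0, 106 and 86.1 CPM, and rose by 1.59. Among p53 target and growth arrest genes 8 of 13 were called higher and 1 lower (median 0.71, and 0.44 without BtdCPU replicate 2). Gadd45b rose most, from 32.4, 36.9 and 36.2 CPM to 159, 175 and 225 CPM (2.41, SE 0.222), the death receptor gene Fas by 1.39, Cdkn1a, the cell cycle inhibitor p21, by 0.77, and Gadd45a by 0.71, which became 0.35 without BtdCPU replicate 2. Of 10 BCL2-family genes 2 were called higher and 3 lower (median -0.08), with pro-apoptotic and survival genes on both sides. The pro-apoptotic Pmaip1 rose by 1.07 (0.74, adjusted p = 0.0525, without BtdCPU replicate 2), while the survival gene Bcl2l1 fell by 0.95. The pro-apoptotic Bak1 and Bax were also called lower (-0.42 and -0.35 without BtdCPU replicate 2). With libraries scaled by their totals the Bax call was lost (-0.30, edgeR adjusted p = 0.0535). The survival gene Mcl1 was also called higher (0.24), but not when any of BtdCPU replicates 1 and 3 or the combination libraries was left out.

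Several of the largest rises lay outside these lists. The linker histone genes Hist1h1d (0.297, 0.425 and 0.244 CPM against 6, 10.4 and 7.75 CPM) and Hist1h1c (6.46, 7.97 and 6.83 CPM against 105, 155 and 133 CPM) rose by 4.62 and 4.21. The share of all counts on clustered histone genes was 0.00256% to 0.00388% with BtdCPU and 0.0242% to 0.0395% in the combination (mRNAs of replication-dependent histones mostly lack a poly-A tail). P2rx7, an ATP-gated channel, was at 0.428, 0.283 and 0.183 CPM against 6.92, 14.0 and 11.6 CPM and rose by 5.18, and the unnamed gene Gm35546 by 5.53. Txnip, a regulator of glucose uptake, was at 2.24, 11.8 and 2.41 CPM against 78.3, 140 and 73.6 CPM (4.13, SE 0.373); its antisense neighbour Gm15441 rose by 3.95, and both values are uncertain, since the sources used here do not give whether the counting used strand.

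Transcripts of glucose metabolism were mostly lower. Of 17 glycolysis genes 12 were called lower and 1 higher, with a median of -0.61. Pfkfb4 fell by 0.94, the glucose transporter gene Slc2a1 (233, 179 and 212 CPM against 127, 120 and 80.8 CPM) by 0.93, Tpi1 by 0.77 and Pkm by 0.66; Slc16a3, the member called higher, was at 0.317 CPM or less in every library. Nuclear genes of the respiratory chain were called lower in 40 of 64 and higher in none, with a median of -0.37. Uqcrh was at 39.8, 106 and 41.7 CPM against 22.2, 28.7 and 21.4 CPM and fell by 1.38, Cox7b by 1.05 and Cox7a2 by 1.00. BtdCPU replicate 2 was the high library in each of these genes, and without it they fell by 0.76, 0.58 and 0.65. Across the list, without it 28 of the 64 were called lower, and with libraries scaled by their totals 25 were lower and 1 higher. The 13 respiratory chain mRNAs encoded by mitochondrial DNA had 0 calls by edgeR, 0 at an unadjusted p under 0.05 and 0 by DESeq2 (median -0.004). Leaving out BtdCPU replicate 2, 5 of the 13 were called higher (median 0.41). The share of counts on these mRNAs was 1.81%, 3.72% and 1.79% with BtdCPU and 2.66%, 3.30% and 1.59% in the combination, and its part in the respiratory chain result was not tested. ND5, not among the 5 called without BtdCPU replicate 2, was at 1048, 1685 and 1386 CPM against 1512, 1463 and 1133 CPM. Without that library its log2 fold change was 0.17 (edgeR adjusted p = 0.419), and those of the 5 ran from 0.55 (ND4) to 1.23 (ND3).

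**Figure D4:**
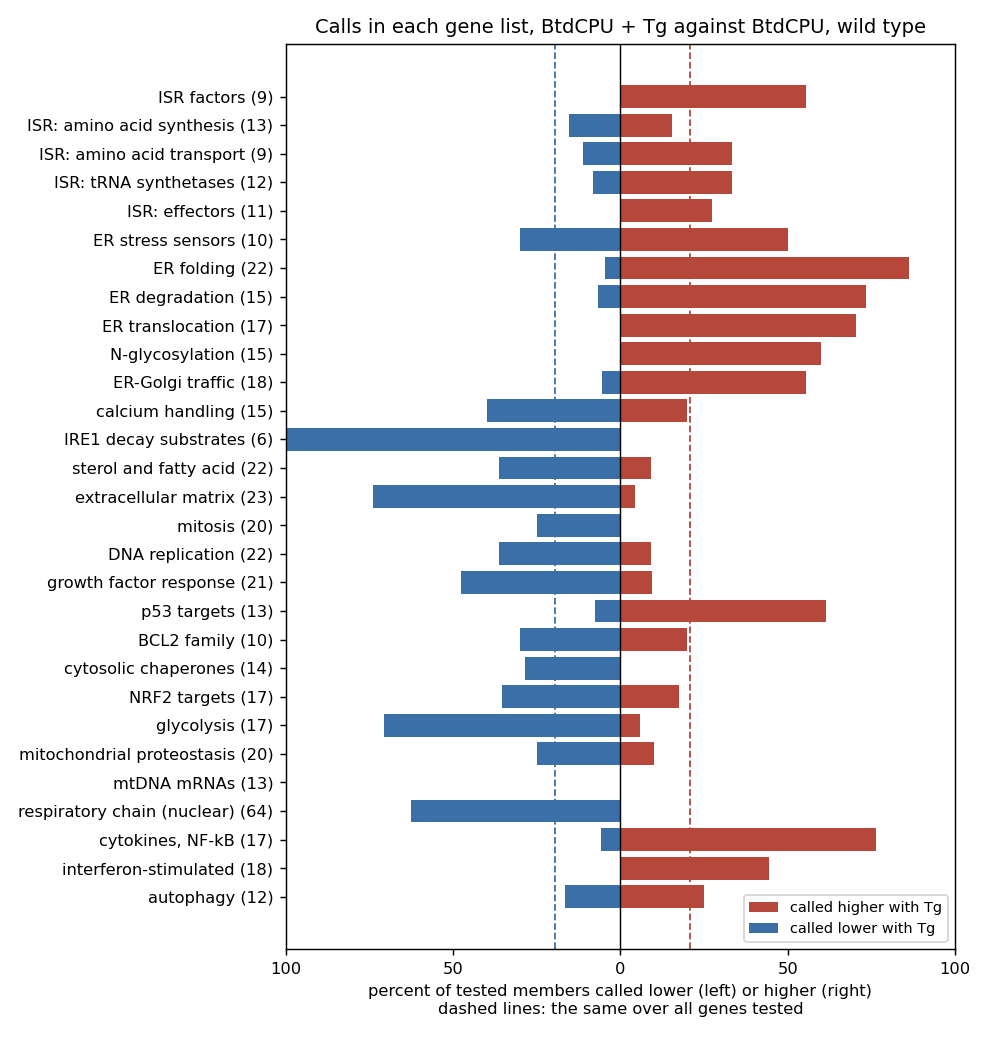
Percent of the tested members of each gene list (number in parentheses) called lower (left, blue) or higher (right, red) when thapsigargin was added to BtdCPU in wild-type MEFs; dashed lines mark 19.5% lower and 20.9% higher over all 16065 genes. ER folding (19 of 22) and cytokines (13 of 17) reach far to the right, IRE1 substrates (6 of 6) and matrix genes (17 of 23) far to the left, and the ISR lists other than the factors (5 of 9) stay nearer the lines.

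Growth factor response genes split: 10 of 21 were called lower and 2 higher (median -0.40). Feedback inhibitors of ERK signalling fell, Dusp6 (46.3, 56.1 and 49.2 CPM against 21.3, 13.5 and 13.8 CPM) by 1.64, Spry4 by 1.42 and Dusp4 by 1.34, whereas the AP-1 genes Junb and Jun rose by 1.38 and 0.38, the Jun call being lost without any of 4 libraries (BtdCPU replicates 1 and 3, combination replicates 1 and 3; adjusted p from 0.0635 to 0.168). Egr1, at 32.7, 43.3 and 36.2 CPM against 57.8, 38.8 and 53.7 CPM, was not called, but it was with libraries scaled by their totals (0.53, adjusted p = 0.038) and with no filter on low counts (0.37, adjusted p = 0.0159). Its response differed from that without BtdCPU, where it fell from 48.2 ± 7.75 to 10.1 ± 1.71 CPM (difference 2.68, edgeR adjusted p = 2e-07). Sterol and fatty acid genes were called lower in 8 of 22 and higher in 2 (median -0.20; 4 higher and a median of -0.09 without BtdCPU replicate 2), with Dhcr7 at -1.37 and with the cholesterol transfer gene Stard4 at 0.53 (0.29, adjusted p = 0.154, without BtdCPU replicate 1). NRF2 targets were lower in 6 of 17 and higher in 3: Prdx1 fell by 0.92 (0.61, adjusted p = 0.0595, without BtdCPU replicate 2) and Nqo1 by 0.76, and Hmox1, heme oxygenase, rose by 1.10. DNA replication genes were lower in 8 of 22 and higher in 2, and mitosis genes lower in 5 of 20 and higher in none. Without BtdCPU replicate 2, replication genes were lower in 6 and higher in 4, and mitosis genes lower in 3. The median was -0.17 for both the replication and the mitosis list. With libraries scaled by their totals it was -0.06 and -0.05, so no direction is given for either list. Mitochondrial proteostasis genes (2 of 20 higher, 5 lower), cytosolic chaperones (0 of 14 higher, 4 lower) and autophagy genes (3 of 12 higher, 2 lower) had medians between -0.07 and -0.03 that turned positive when libraries were scaled by their totals, so no direction is given for them.

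In Perk-null cells the same addition of thapsigargin to BtdCPU changed 2701 genes (16.8%), 1500 higher (9.34%) and 1201 lower (7.48%). In fits of only the groups compared the count was 4277, close to the 4362 of wild type in the same kind of fit, so the gap in count between genotypes depends on the fit. In the fit of all libraries, 585 genes rose in both genotypes (17.4% of the wild-type and 39% of the Perk-null rises). A further 516 fell in both (16.5% and 43.0%), and 367 were called in opposite directions. The difference between genotypes passed the test for 3974 genes (24.7%), 1983 (12.3%) with a more positive response in wild type and 1991 (12.4%) with a more negative or less positive response. ER genes rose in 66 of 97 in Perk-null cells, the same number as in wild type, and 19 responses were larger and 7 smaller in wild type. Creld2 (difference 2.01), Sdf2l1 (1.69), Dnajb9 (1.54) and Hyou1 (1.06) had larger responses in wild type, whereas that of Hspa5 did not differ by the test (0.38, edgeR adjusted p = 0.168). ISR genes were called higher in 39 of 54 and lower in 1 in Perk-null cells, against 17 and 4 in wild type, and 19 of 54 responses were smaller in wild type and none larger (29 of 54 without BtdCPU replicate 2 of the wild type). Ddit3, for example, averaged 98.6 ± 5.75 CPM with BtdCPU and 396 ± 19.8 CPM with the combination in Perk-null cells (SD, n = 3), and its response was smaller in wild type by 0.98 (edgeR adjusted p = 0.0114).

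Falls and cytokine rises separated the genotypes further. All 6 IRE1 substrate mRNAs fell more in wild type by the test of the difference (median -1.17), and matrix genes fell more in 10 of 23 and less in 1. Col1a2 averaged 5544 ± 720 CPM with BtdCPU and 5756 ± 485 CPM with the combination in Perk-null cells, and the difference in response was -1.20 (edgeR adjusted p = 2.47e-06). Steap3, a metalloreductase gene, fell in wild type (86.0, 64.4 and 74.8 CPM against 18.8, 18.5 and 22.2 CPM) and rose from 50.8 ± 0.322 to 87.5 ± 5.17 CPM in Perk-null cells. Of 17 cytokine and NF-kB genes 10 had a more positive response in wild type and 1 a more negative response: Tnfaip3 fell from 13.9 ± 3.46 to 4.41 ± 0.330 CPM in Perk-null cells, a difference of 4.25, and Cxcl1 stood at 16.0 ± 4.13 and 16.6 ± 5.23 CPM there (difference 4.24). Growth factor response genes were lower in 19 of 21 in Perk-null cells, and 13 of the 21 responses were more positive in wild type. P2rx7 and Hist1h1c, with differences of 5.25 and 4.76, were not raised in Perk-null cells (0.491 ± 0.0367 against 0.469 ± 0.245 CPM, and 24.1 ± 3.94 against 16.5 ± 2.80 CPM).

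With halofuginone, which activates the kinase GCN2 by inhibiting prolyl-tRNA synthetase, in place of BtdCPU, thapsigargin changed 2242 genes (14%) in wild-type cells, 1306 higher (8.13%) and 936 lower (5.83%), and 1374 without replicate 2 of the halofuginone combination. The count was 3929 with the replicate number as a block, since these 6 libraries met the criterion for pairing, and 770 in a fit of only the groups compared. Few ISR genes were called here: 3 of 54 higher and none lower (8 higher with the block, 1 of 53 in the smaller fit). On top of BtdCPU these counts were 17 higher and 4 lower. ER genes rose in 71 of 97 with halofuginone, with none lower. Responses differed between both activators in 4296 genes (26.7%), 13% more positive and 13.7% less positive or more negative under BtdCPU. Of the ER genes 40 had a smaller and 6 a larger response under BtdCPU (25 and 4 in a fit of only the groups compared, 46 and 13 with the block), and among these Hyou1 (difference -0.76) and Creld2 (-0.59; adjusted p = 0.117 in the smaller fit) were smaller while Hspa5 was larger (1.00, edgeR adjusted p = 0.000362). Of the 54 ISR genes 4 responses were larger and 4 smaller under BtdCPU. P2rx7 and Hist1h1c, among the genes with the largest positive differences, were already high with halofuginone alone. P2rx7 averaged 41.3 ± 20.7 CPM there and 29.7 ± 9.78 CPM with thapsigargin added, and Hist1h1c 526 ± 239 and 493 ± 132 CPM. Neither rose with thapsigargin there, and the differences in response were 5.66 and 4.30.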

How the data were processed

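Strand-specific libraries, made after ribosomal depletion and mRNA selection from RNA of a Quick-RNA kit, were sequenced on DNBSEQ, per the labels' protocols. The submitters' processing notes name the build GRCm39 and DESeq, with no role or version; the aligner and counter are not given in the sources used here. The authors deposited 1 table of estimated counts with 36930 entries, in which 50.6% of values are 0.025, read here as 0, and 2.69% of the others carry a fraction. Here the counts were rounded, and 39 symbols on 86 entries were summed. In all, 27 entries whose name was empty, a number or a date (0.206% to 0.278% of each library) could not be named. Tests were made on all 36 libraries with 12 group means in edgeR 4.0.16 (R 4.3.3; TMM scaling, filterByExpr, robust quasi-likelihood fit), with Benjamini-Hochberg adjustment over 16065 genes and a threshold of 0.05; differences between responses were contrasts of the same fit. SE is the fold change divided by the root of F, and CPM uses TMM-scaled library sizes. The procedure was tested on simulated data with a single spread for all genes and few changed genes. It was not tested on changes as broad as those found here. No pair of libraries agreed within sampling noise (chi-square per degree of freedom at least 9.06).

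Genes were named by a rule: fixed readouts, up to 3 largest called rises and falls of each of 29 lists, the 8 largest rises and falls overall and the 4 largest differences in each direction among genes averaging a log2 CPM of 2 or more. Other list members named were chosen after their values were seen. The comparison and all lists were chosen with earlier results of these data known. Of 36856 gene symbols, 29178 matched RefSeq by a current name and 1317 by an older name only. Promoters are RefSeq's for GRCm38.p6, matched by symbol, and 11756 of the 16065 genes tested (73.2%) had one. No coordinate was moved between builds. Alternatives were DESeq2 1.42.0, other scalings and filters, fits of only the groups compared, a replicate block and each library left out in turn. The labels do not say what replicate numbers mark; same-numbered libraries deviated together by over 0.1 in every pair of the halofuginone comparison (correlations 0.218, 0.308 and 0.502) but not of the others, so blocked values are given there. Mx1, Mx2 and Adgre1 were not analysed here.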

Additional observations from a re-analysis of the deposited data

Results flagged for a closer look

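The results here are differences between 2 thapsigargin responses that passed the edgeR test of the difference itself; with 3 libraries per group no library was tested for standing far from its group.

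The response of 1402 genes differed between wild-type cells with and without BtdCPU. It was more positive with BtdCPU for Egr1 (2.68 on the log2 scale), Tnfaip3 (2.2), Rgs4 (2) and Gadd45g (1.96). It was smaller for the ISR genes Adm2 (-4.62), Trib3 (-4.43), Atf3 (-4.4), Ddit3 (-3.64), Chac1 (-3.63), Ppp1r15a (-3.61), Asns (-1.76), Atf4 (-1.69) and Psat1 (-1.09), and for Cdsn (-4.59). Among ER and calcium genes it was smaller for Herpud1 (-2.03), Atf6 (-1.57), Ern1 (-1.23), Hspa5 (-0.746), Pdia4 (-0.665) and Atp2a2 (-0.493).

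The response on top of BtdCPU differed between wild-type and Perk-null cells in 3974 genes. It was more positive in wild type for P2rx7 (5.25), Hist1h1d (4.88), Hist1h1c (4.76) and Mmp13 (4.33), and more negative or less positive for Plin4 (-3.74), Steap3 (-2.71), Cdsn (-2.69) and Acot1 (-2.69).

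Between BtdCPU and halofuginone as the agent already present, 4296 responses differed in wild type. They were more positive with BtdCPU for Gm35546 (6.11), P2rx7 (5.66), Hist1h1d (4.79) and Hist1h1c (4.3), and more negative or less positive for Slco4a1 (-3.79), Tmem119 (-3.21), Trib2 (-3.2) and Tmem180 (-3.01).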

How the results depend on the processing

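The count of 6489 genes changed by thapsigargin on top of BtdCPU stayed within 1.5 times under every alternative run: 5668 to 6003 with a library left out, 4362 in a fit of only the groups compared, 8053 with a replicate block and 6731 with DESeq2. Over these 6 libraries the criterion for pairing (every same-numbered correlation of deviations over 0.1) was not met: the correlations were 0.026, 0.28 and 0.255, though 5 of 6 libraries were closest to their own number. Of the named genes the replicate block also called Ern1 and Adm2 (0.58, adjusted p = 0.0192), and it gave 4318 genes in Perk-null cells, 3929 with halofuginone and 3140 for the difference with against without BtdCPU. It changed no call of a gene named in the halofuginone comparison. Fits of only the groups compared gave 4277, 770 and 547 for these 3 and 2575 for BtdCPU against halofuginone. With libraries left out in turn, the halofuginone count ran from 1374 to 2220 and the difference with against without BtdCPU from 818 to 2668. Scaling by library totals put the higher share at 65.4% in place of 51.7%, at 64.7% in place of 40.4% for the difference with against without BtdCPU, at 68.6% in place of 49.9% for the difference between genotypes and at 76.2% in place of 58.3% with halofuginone. Signs turned for Eif2ak1 (0.054 by library totals), and, over the fits that left out a library, for Ern1 (-0.000172 to 0.536), Trib3 (-0.469 to 0.0087), Slco4a1 (-0.541 to 0.032) and Tmem119 (-0.555 to 0.12), with the opposite sign only without BtdCPU replicate 2 (Ern1, Tmem119) or 1 (Trib3, Slco4a1). Of the other values of named genes, 1847 kept direction and call, 120 lost and 13 gained the call. Beyond the fewer samples in the smaller fits, the cause was not tested. Genes at a few counts, such as Derl3, Slc16a3 and Cxcl2, are limited by depth.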
